A study of Mus musculus with 10 samples.

Results

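The genes described here are 30 members of the cholesterol pathway, taken by name as a fixed list from the 18216 genes in the deposited table: 18 enzymes of synthesis, 5 genes of the SREBP system that senses sterols and drives the enzymes, and 7 genes of cholesterol transport, efflux, storage and turnover. All 30 were in the table, and all 30 were among the 16781 genes tested. They were measured by RNA sequencing in prefrontal cortex. The animals were 10 C57BL/6N males aged 10 days (P10), 5 heterozygous for Arid1b (Arid1b+/-, HT) and 5 wild type (WT), and the labels name no treatment. The mutant allele is a germline, protein-truncating change in exon 5 made by CRISPR/Cas9, so that 1 copy is affected in every cell of the animal and not in a chosen cell type. Arid1b encodes a DNA-binding subunit of the BAF chromatin remodelling complex.

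The adult and developing brain makes nearly all of its own cholesterol, since lipoproteins of the blood do not cross the blood-brain barrier. Acetyl-CoA is built up to mevalonate, isoprenoid units and squalene, and squalene is cyclised to lanosterol and trimmed to cholesterol. When membrane sterols are low, SCAP escorts the SREBP transcription factors from the endoplasmic reticulum to the Golgi for cleavage, and the INSIG proteins hold them back when sterols are high. Demand is high in the first postnatal weeks, when oligodendrocytes start to build myelin, astrocytes supply sterol to neurons, and neurons turn the excess into an exportable oxysterol.

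SREBPs are known to bind sterol regulatory elements in promoters and to work with NF-Y and Sp1 bound nearby. The promoters of 3 members are shown: Hmgcs1, the most highly expressed enzyme, Lss, the member with the smallest p-value, and Srebf2, which encodes the main SREBP of cholesterol synthesis. The runs are the RefSeq sequence (GRCm38.p6) on the plus strand, 5′ to 3′, and capitals mark matches on either strand to the sterol regulatory element core TCACNCCAC, the NF-Y box CCAAT and the Sp1 box GGGCGG, a match on the other strand appearing as its reverse complement. The Hmgcs1 run is chr13:119690101-119690350, the Lss run chr10:76531355-76531587 and the Srebf2 run chr15:82147019-82147180. Each begins 250 bases before the RefSeq start site. The Hmgcs1 run ends at that site, and the Lss and Srebf2 runs end 17 and 88 bases short of it, where the GENCODE gene begins, so matches beyond that point are not shown.
Hmgcs1: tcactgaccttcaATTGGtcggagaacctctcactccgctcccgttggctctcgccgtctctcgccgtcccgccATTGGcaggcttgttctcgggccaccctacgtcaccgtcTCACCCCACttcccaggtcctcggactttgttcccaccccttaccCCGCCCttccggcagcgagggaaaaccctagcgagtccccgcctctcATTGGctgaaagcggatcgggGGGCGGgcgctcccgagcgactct
Lss: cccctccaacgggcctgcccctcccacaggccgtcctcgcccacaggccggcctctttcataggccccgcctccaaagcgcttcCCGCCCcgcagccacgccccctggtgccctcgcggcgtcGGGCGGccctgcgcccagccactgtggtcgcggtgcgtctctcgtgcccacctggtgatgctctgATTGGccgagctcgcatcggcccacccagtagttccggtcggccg
Srebf2: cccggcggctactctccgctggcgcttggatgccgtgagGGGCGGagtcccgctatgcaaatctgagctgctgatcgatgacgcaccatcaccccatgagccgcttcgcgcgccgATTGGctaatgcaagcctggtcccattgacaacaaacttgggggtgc

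In windows from 250 bases before to 50 bases after the RefSeq start site, which were found for 24 of the 30 members, the NF-Y box was present for 21 members (87.5%) against 41.1% of all 27025 genes with a window. The Sp1 box was present for 23 of 24 (95.8%) against 38.2%. A gene counted if any of its windows matched, and some genes have more than 1. By window, the NF-Y box was in 68.8% of 32 member windows against 37.4% of all 32851. The Sp1 box was in 84.4% against 35.7%. The comparison was with all genes that have a window, whether or not they were tested here. The sterol regulatory element core in this exact spelling was present for 1 member, Hmgcs1, against 1.44% of all genes, and its first base lay at -137 from the RefSeq start site. None of the 3 motifs lies within another. These are matches of letters in a window and not measured binding sites. No window was found for Fdps, Fdft1, Sqle, Stard4, Npc1 and Abcg1.

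Values are given as normalised counts, estimated reads per gene after the authors' correction for library size, and their totals ran from 31106330 to 32106791 per mouse. Arid1b (chr17:4994332-5347656) was 1938, 1767, 1987, 1849 and 1929 in HT1 to HT5 and 3018, 2807, 2775, 2949 and 2662 in WT1 to WT5. Every HT mouse was below every WT mouse, and the HT level was 66.6% of WT (log2 fold change -0.59, SE 0.048, limma adjusted p = 9.96e-05). Cortical markers were present in every mouse, with Slc17a7, the vesicular glutamate transporter of cortical excitatory neurons, at 37828 to 52447. Striatal markers were not alike: the sum of 7 was 3483 in HT5, 2322 in WT3 and 2634 in WT5 against 7136 to 11227 in the other mice. Whether the dissections differed was not tested. HT2 had the highest share of mitochondrial transcripts, 8.43% against 5.15% to 6.76% elsewhere. In such bulk tissue, fewer cells of a type and less RNA per cell cannot be told apart.

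Cholesterol genes were close to equal in HT and WT cortex. None of the 30 members passed an adjusted p of 0.05 in limma, against 3 of 16781 genes (0.0179%), and the lowest adjusted p of a member was 0.535. At an unadjusted p under 0.05, 1 member was higher in HT (Lss), against 4.71% of all genes, and 0 were lower, against 4.52%. In no member did the 5 HT values all lie above or all below the 5 WT values, whereas 0.703% of all genes were higher and 0.918% lower without overlap. The median log2 fold change of the members was -0.014, with 14 above 0 and 16 below, beside -0.0035 over all genes tested. With 1 mouse left out, the members' median ran from -0.030 (without HT1) to 0.0073 (without HT5).

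The intervals show how large a difference these mice could still hide. For 26 of the 30 members (86.7%), the 95% interval of the HT to WT ratio lay wholly between 80% and 125%, a range chosen after the values were seen, and 56.5% of all genes tested met the same limits. The exceptions were Ebp, Srebf1, Scap and Abca1, whose values spread most among mice of 1 genotype. The 4 role groups had medians of -0.013 for the mevalonate and squalene branch, -0.0063 for squalene to cholesterol, -0.029 for the SREBP system and -0.0099 for transport and turnover.

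**Figure D1:**
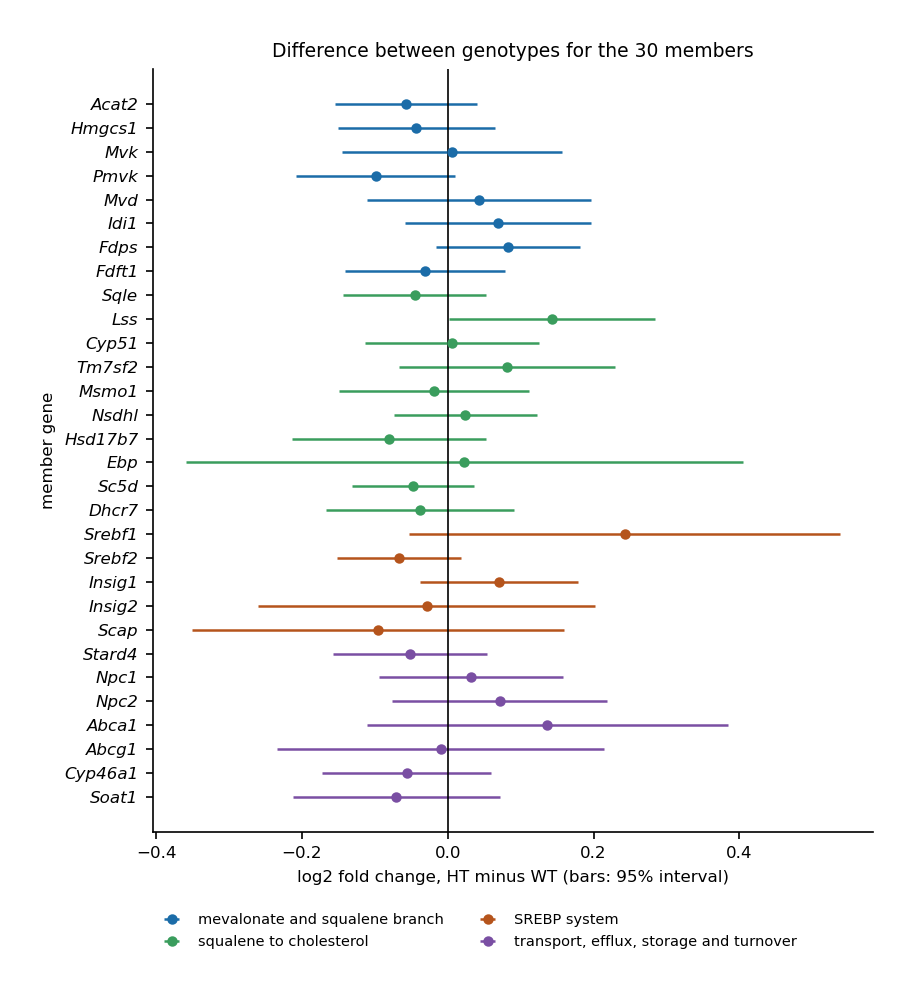
Log2 fold change, HT minus WT, of each member (points) with its 95% interval (bars), coloured by role group. Lss is the member whose interval stays above 0 (0.00 to 0.28), and Srebf1, at 0.24, has the highest point and an interval from -0.05 to 0.54.

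Enzymes from acetyl-CoA to squalene came first in the pathway and showed small differences in both directions. Hmgcs1 (chr13:119690379-119708260), the cytosolic HMG-CoA synthase, was 21076 ± 1214 in HT and 21694 ± 700.3 in WT (SD, n = 5 mice each here and below). The difference had an interval from -9.91% to 4.56%. Idi1, which interconverts the isoprenoid building blocks, was 2757 ± 186 against 2628 ± 173. Mvk and Mvd, mevalonate kinase and the decarboxylase that ends the mevalonate steps, were 833 ± 45.7 against 832 ± 80.8 and 836 ± 59.1 against 812 ± 70.2. Fdft1, squalene synthase, was 3136 ± 206 against 3200 ± 122.

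Pmvk, phosphomevalonate kinase (chr3:89454541-89469013), and Fdps, which makes farnesyl diphosphate (chr3:89093588-89101959), had the largest fold changes of this branch, in opposite directions. Pmvk was 1065, 1030, 1002, 968 and 940 in HT1 to HT5 and 1021, 1072, 1048, 1117 and 1099 in WT1 to WT5. All 5 HT mice lay below the WT mean, although HT1 and HT2 were above WT1 and the groups overlapped (log2 fold change -0.10, SE 0.051, limma adjusted p = 0.557). Fdps was 1957, 1882, 1970, 1828 and 1931 in HT and 1917, 1796, 1680, 1856 and 1794 in WT. The WT mean was exceeded in 5 of 5 HT mice, with WT1 above HT2 and HT4 (0.08, SE 0.046, limma adjusted p = 0.584).

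Several of these genes share sequence with other genes, which bears on how reads were divided between them. Of the 31-base words in the exons of Acat2, the cytosolic thiolase that condenses acetyl-CoA, 43.7% also occur in its neighbour Acat3. Acat2 was 1813 ± 49.3 in HT and 1887 ± 92.2 in WT, and the sum of Acat2 and Acat3 was 1850 ± 46.9 and 1930 ± 99.6. The share was 27.9% for Fdps, mostly with the overlapping gene model Gm43738, 18.8% for Idi1 and 14.3% for Fdft1. These are shares of sequence and not errors of the values, and how reads from the shared stretches were divided was not tested for Fdps, Idi1 and Fdft1.

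In the steps from squalene to cholesterol, lanosterol synthase was the single member past an unadjusted p of 0.05. Lss (ENSMUSG00000033105, chr10:76531588-76557138), whose product closes the sterol rings, was 2015, 2598, 2248, 2084 and 2163 in HT1 to HT5 and 2024, 2107, 2000, 1839 and 2062 in WT1 to WT5. HT2 stood highest and WT4 lowest, all 5 HT mice were above the WT mean, and HT1 and HT4 lay within the WT range. The log2 fold change was 0.14 (SE 0.065, limma adjusted p = 0.535). Without HT2 it was 0.08, and no member then passed the unadjusted threshold.

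Tm7sf2, a sterol reductase of the nuclear envelope and endoplasmic reticulum (chr19:6062821-6068373), was 982, 1016, 886, 937 and 1017 in HT and 993, 926, 780.0, 916 and 967 in WT. WT3 was the lowest mouse and the groups overlapped (log2 fold change 0.08, SE 0.069, limma adjusted p = 0.702). Without WT3 the log2 fold change was 0.024. Its exons overlap those of Vps51 on the same strand, and 12.9% of its words occur in other genes.

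The remaining 8 enzymes of these steps did not pass even the unadjusted threshold, nor did Tm7sf2. Sqle, squalene epoxidase, was 3875 ± 200 in HT and 3996 ± 152 in WT. Cyp51, which demethylates lanosterol, was 3223 ± 231 and 3207 ± 169, and Msmo1, the next oxidase, was 2707 ± 146 and 2747 ± 234. Nsdhl and Hsd17b7, partners in removing the methyl groups, were 1197 ± 43.3 against 1177 ± 34.0 and 918 ± 56.1 against 972 ± 63.1. Sc5d and Dhcr7, the desaturase and the reductase near the end of the pathway, were 2789 ± 88.1 against 2883 ± 58.8 and 1610 ± 87.8 against 1655 ± 130. Ebp, the sterol isomerase, had nearly equal means of 407 ± 88.5 and 403 ± 93.3 but ran from 253.5 in WT5 to 506 in WT1, the largest ratio of highest to lowest mouse of any member.

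The SREBP system held both the highest fold change and the steadiest regulator. Srebf1 (chr11:60199089-60222581), whose SREBP-1 products mainly drive fatty acid synthesis and which is itself a target of the oxysterol receptors, was 653, 937, 632, 757 and 1041 in HT1 to HT5 and 622, 745, 572, 805 and 615 in WT1 to WT5. HT2 and HT5 lay above every WT mouse, and the other HT mice lay within the WT range. The log2 fold change was 0.24 (SE 0.14, limma adjusted p = 0.587), and with 1 mouse left out it ran from 0.14 (without HT5) to 0.32 (without HT3). Of a pair of settings chosen after the data were seen, leaving out HT2 and HT5 gave a log2 fold change of 0.03. Those mice were highest in microglial, astrocyte, oligodendrocyte precursor and meningeal markers. The other setting, without HT5, WT3 and WT5, the mice lowest in striatal markers, also gave 0.03. Leaving out HT2 and HT5 removes the highest HT values of Srebf1, Npc2 and Abca1 and so had to lower their HT means. Without HT5, WT3 and WT5, the highest HT value and the lowest WT values of the same genes are gone. That had to lower their HT means and raise their WT means. Srebf2 was 7406 ± 265 in HT and 7756 ± 194 in WT, with all 5 HT mice below the WT mean (log2 fold change -0.07, SE 0.040, limma adjusted p = 0.596).

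Scap, the escort protein (chr9:110333288-110384950), was 3146, 2094, 3431, 2721 and 2497 in HT and 3517, 2652, 3121, 2676 and 2750 in WT. HT2 was the lowest mouse by a wide margin, and both groups spread over much of the same range (log2 fold change -0.10, SE 0.12, limma adjusted p = 0.798). Without HT2 the difference was 0.00059. Insig1, the sterol-responsive retention protein, was 2366 ± 139 in HT and 2252 ± 101 in WT, and Insig2, its less sterol-dependent relative, was 775 ± 125 and 788 ± 101.

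**Figure D2:**
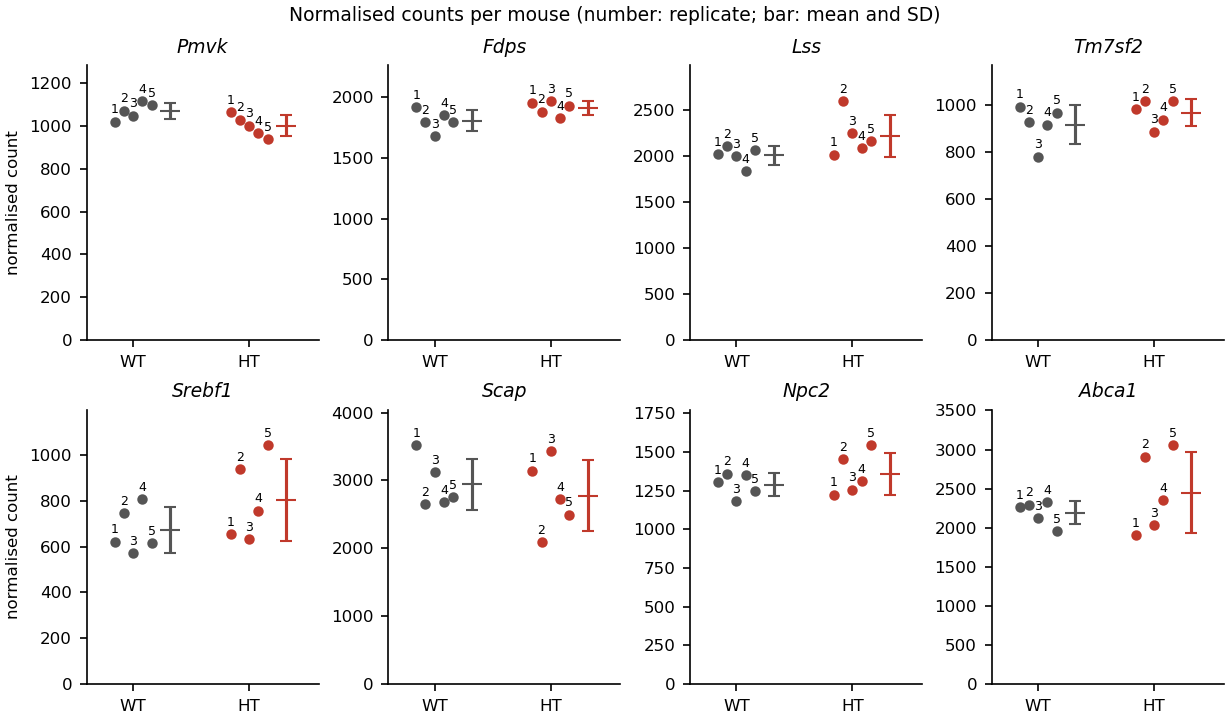
Normalised count of the 2 members with the largest absolute fold change in each role group (panels), for WT (grey) and HT (red) mice labelled by replicate number, with mean and SD as bars and each axis starting at 0. HT2 and HT5 are the 2 highest mice in Srebf1, Npc2 and Abca1, and HT2 is the lowest in Scap.

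None of the transport genes passed the test. Abca1 (chr4:53030787-53159895), which exports cholesterol to lipid-poor apolipoproteins and is a target of the oxysterol receptors, was 1908, 2908, 2031, 2352 and 3054 in HT1 to HT5 and 2263, 2295, 2126, 2331 and 1959 in WT1 to WT5. HT2 and HT5 were above every WT mouse and HT1 was below them all (log2 fold change 0.14, SE 0.12, limma adjusted p = 0.701). With 1 mouse left out it ran from 0.051 (without HT5) to 0.22 (without HT1). In the setting without HT2 and HT5, chosen after the data were seen, it was -0.07. Leaving out the 2 highest HT mice had to lower it. Abcg1, the exporter that loads lipoprotein particles, was 897 ± 95.6 in HT and 908 ± 157 in WT.

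Npc2 (chr12:84754562-84773152), the soluble protein that hands cholesterol to NPC1 in the lysosome, was 1224, 1454, 1257, 1314 and 1544 in HT and 1306, 1360.0, 1181, 1353 and 1248 in WT. HT2 and HT5 were again the 2 highest mice, and the other 3 HT mice were within the WT range (log2 fold change 0.07, SE 0.069, limma adjusted p = 0.734). With 1 mouse left out it ran from 0.024 (without HT5) to 0.11 (without HT1). In the setting without both HT2 and HT5, which had to lower it, it was -0.03. Npc1 was 1460 ± 96.9 in HT and 1428 ± 88.5 in WT.

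Stard4, a soluble sterol carrier, was 1426 ± 77.5 in HT and 1477 ± 46.3 in WT. Cyp46a1, the neuronal hydroxylase by which the brain disposes of cholesterol, was 4167 ± 283 and 4329 ± 226. Soat1, which esterifies cholesterol for storage, was 706 ± 51.1 and 741 ± 48.9. The interval of the difference ran from -11.3% to 4.24% for Cyp46a1 and from -13.7% to 5.12% for Soat1.

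The members did not rank the mice in a common order. WT3 was the lowest of the 10 mice in 8 of the 30 members, namely Mvk, Mvd, Idi1, Fdps, Tm7sf2, Srebf1, Npc1 and Npc2. HT2 was highest in 5 (Idi1, Lss, Cyp51, Insig1 and Npc1) and lowest in 4 (Hmgcs1, Fdft1, Sqle and Scap). HT5 was highest in 4 (Tm7sf2, Srebf1, Npc2 and Abca1) and lowest in 5 (Pmvk, Cyp51, Hsd17b7, Stard4 and Abcg1), while HT4 was highest in 0.

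Marker sums of several cell types moved with the same mice, and their part in the members' values was not tested. The sum of 11 astrocyte markers ran from 161407 to 205092 in HT and from 147016 to 173680 in WT, with HT2 and HT5 highest. Of these markers, 11 of 11 had a log2 fold change above 0, 7 of them with an unadjusted p under 0.05. Over all genes tested, 8194 of 16781 were above 0, and 4.71% were higher and 4.52% lower at that threshold. For 8 microglial markers the sum was 14982 in HT2 and 14394 in HT5 against 10474 to 12091 in the other mice, and 8 of 8 were above 0, 2 with an unadjusted p under 0.05. For 10 oligodendrocyte markers, the sum was 61504 to 91079 in HT and 34498 to 93289 in WT with WT3 lowest, and 10 of 10 were above 0, 0 of them past that threshold. The sum of 6 markers of cortical glutamatergic neurons was lowest in HT2, 52878 against 59492 to 72512. Sums of 5 oligodendrocyte precursor markers were 9524 to 12483 in HT and 8271 to 10614 in WT. Those of 5 endothelial markers were 7296 to 10612 and 7244 to 7974, and those of 6 meningeal markers 2614 to 4576 and 3201 to 3656. HT2 and HT5 were highest in the precursor and meningeal sums. Fold changes were above 0 in 5 of 5 precursor, 5 of 5 endothelial, 7 of 7 striatal, 3 of 6 meningeal and 2 of 6 neuronal markers. At an unadjusted p under 0.05, 1 precursor marker was higher and 1 neuronal marker lower. No marker of any list was at 0 in all mice.

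**Figure D3:**
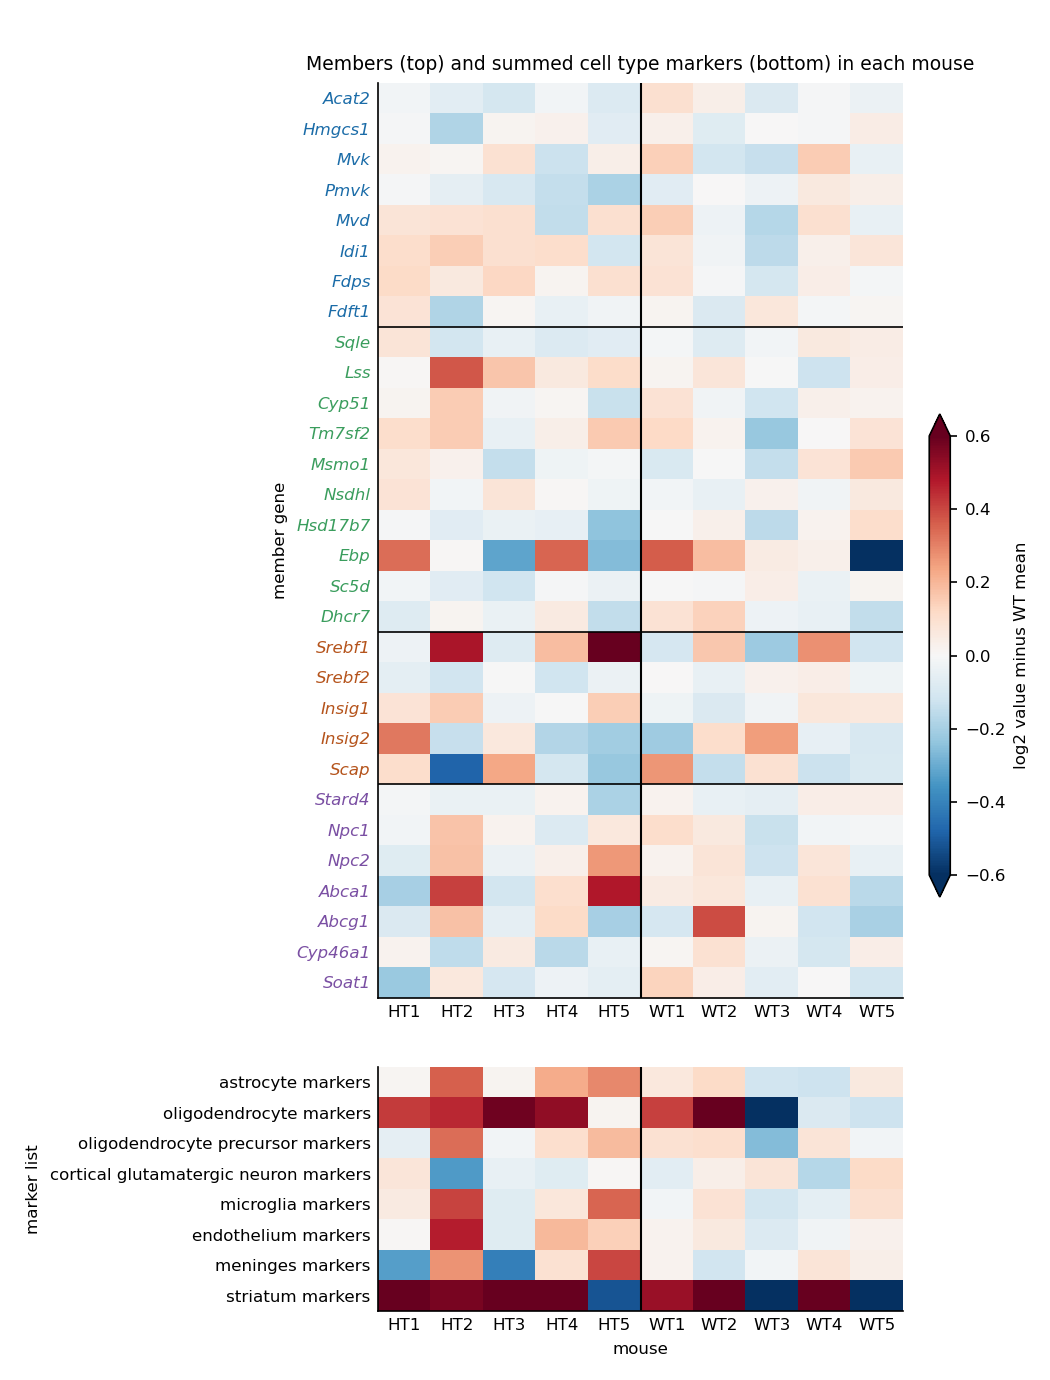
Log2 value minus the WT mean of each member (top, gene names coloured by role group) and of each summed marker list (bottom) in the 10 mice, with red above and blue below the WT mean and colours saturating at 0.6 in either direction. HT2 and HT5 are red in Srebf1 and Abca1 and in the astrocyte and microglia rows, and WT3 is deep blue in the oligodendrocyte row.

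Levels across genes were compared per kilobase (kb) of exon, since longer genes collect more reads. In WT mice Hmgcs1 stood alone at 4722 ± 152 normalised counts per kb, followed by Cyp46a1 at 1317 ± 68.9 and Srebf2 at 1080 ± 27.0, and none of these 3 overlapped its neighbour in the order. Fdft1, Idi1, Acat2, Insig1, Cyp51 and Sqle came next, between 757 and 721, each overlapping the next, and they could not be ranked. Soat1 was lowest at 75.7 ± 5.0, below Srebf1 at 119 ± 17.5, Abcg1 at 125 ± 21.5 and Npc1 at 126 ± 7.82. Over the whole order, 21 of 29 neighbouring pairs had overlapping WT values. All annotated exons of a gene were counted in its length, which understates the level of a gene with long, little-used exons.

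**Figure D4:**
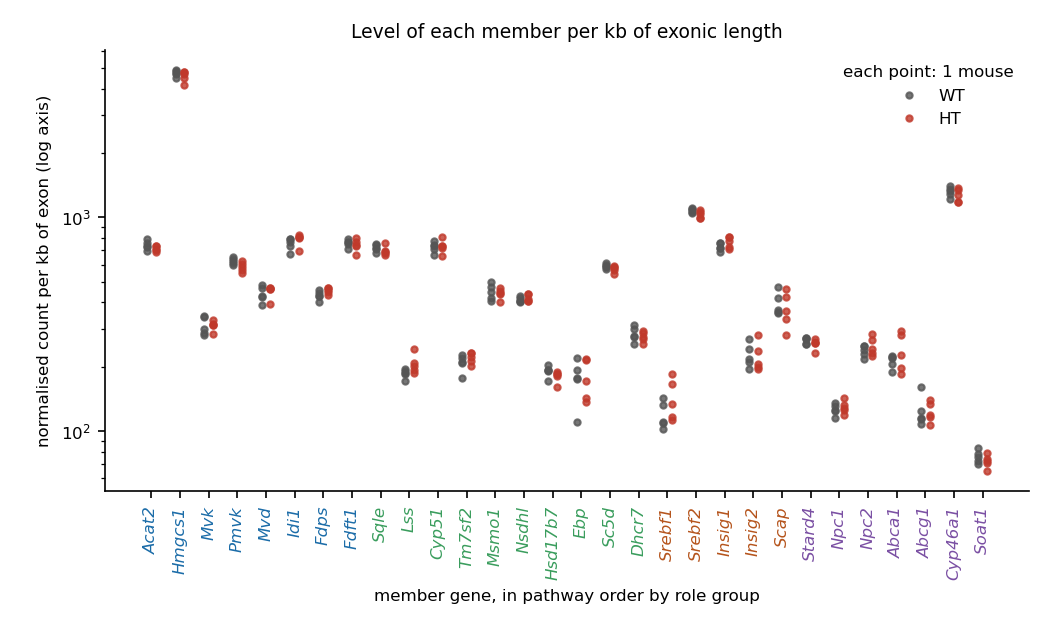
Normalised count per kb of exon on a log axis for each member in pathway order, with 1 point per mouse (WT grey, HT red). Hmgcs1, at 4722 in WT, is far above the rest, Soat1 is lowest, and the points of both genotypes overlap in every gene.

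Spread between mice of 1 genotype also separated the members. The within-group SD on the log2 scale had a median of 0.096 over the members and 0.14 over all genes tested. Sc5d (0.039), Srebf2 (0.045) and Nsdhl (0.047) varied least. Ebp (0.35), Srebf1 (0.27), Scap (0.23), Abca1 (0.23), Insig2 (0.20) and Abcg1 (0.20) varied most.

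Of 44 cholesterol genes beyond the members, 0 passed the adjusted threshold in limma, and at an unadjusted p under 0.05 there were 2 of 44 higher and 3 of 44 lower in HT, near the 4.71% and 4.52% over all genes tested. Erlin1, part of the complex that hands sterol-regulated proteins to degradation, was 599 to 702 in HT and 745 to 861 in WT, without overlap, as in 0.918% of all genes (log2 fold change -0.22, SE 0.062, limma adjusted p = 0.414). Osbpl9, an oxysterol-binding protein homologue, was 1294 ± 60.1 against 1122 ± 75.4 (0.21, limma adjusted p = 0.414). Mbtps1, the protease that makes the first cut in SREBPs, was 2580 ± 171 against 2315 ± 139 (0.16, limma adjusted p = 0.482). Fbxw7, a ubiquitin ligase subunit that acts on nuclear SREBPs, was 6462 ± 549 against 7361 ± 365 (-0.19, limma adjusted p = 0.472), and Mylip, a ubiquitin ligase induced by the oxysterol receptors, was 872 ± 77.5 against 979 ± 69.5 (-0.17, limma adjusted p = 0.510). The median log2 fold change of the 44 was -0.03.

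Of 12 fatty acid synthesis genes, 0 passed the adjusted threshold in limma, and 3 were higher and 0 lower in HT at an unadjusted p under 0.05, against 4.71% and 4.52% of all genes. Scd1, a desaturase, was 5832 ± 448 in HT and 5229 ± 489 in WT (log2 fold change 0.16, limma adjusted p = 0.513). Fads2, the desaturase of polyunsaturated fatty acids, was 8636 ± 807 and 7784 ± 470 (0.15, limma adjusted p = 0.516), and Gpam, which starts glycerolipid synthesis, was 4444 ± 627 and 3875 ± 170 (0.19, limma adjusted p = 0.515). HT2 held the highest value in all 3, the mouse with the highest astrocyte, microglial and endothelial marker sums, and the part of those cells was not tested. The median of the 12 was 0.05.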

How the data were processed

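Libraries were made from total RNA with a stranded mRNA kit, 1 per mouse, 5 HT and 5 WT. The authors quantified reads with Salmon 1.1.0 against GRCm38 and normalised them with DESeq2 1.30.1, and the deposited values are this signal, normalised estimated counts that are not whole reads, so read depth is unknown and no count test was run. Salmon's strand setting is not given in the sources used here, and genes overlapping on the other strand are uncertain. Values were taken as log2(value + 1), genes with a mean under 10 were left out (16781 of 18216 tested), and HT was compared with WT with limma 3.58.1 in R 4.3.3 (moderated test with a mean-variance trend, two-sided, Benjamini-Hochberg over all genes tested, threshold 0.05). The fit was tested first on simulated data, with changes larger than the fold change of any member. That test does not show how well differences as small as those of the members would be found. Labels number the mice but do not say how litters were shared, so p-values measure the spread between these mice. All members were named. Values per mouse were given for members with an unadjusted p under 0.05 and the 2 with the largest absolute fold change in each role group. From the other lists each gene with an unadjusted p under 0.05 was named, and 3 further genes that the rule names are not reported here. Members and lists were chosen with earlier results of these data known. Exon positions and lengths came from GENCODE M21 (GRCm38). Alternatives covered the pseudocount (0.5, 10), the filter (none, 50), scaling (upper quartile, quantile), the trend, sample weights, the replicate number and leaving out mice.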

Additional observations from a re-analysis of the deposited data

Results flagged for a closer look

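Of 62 groups of 5 mice examined for 1 value far from the rest, 3 were past the critical gap share of 0.71, where chance gives about 3.1. Mvd in HT4 was 730 against 854 to 867 in the other HT mice, a gap of 0.907 of the group's range. Idi1 in HT5 was 2431 against 2803 to 2906 (0.784), and Hsd17b7 in HT5 was 821 against 926 to 964 (0.734).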

How the results depend on the processing

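No member passed an adjusted p of 0.05 in limma under any of the 9 alternatives that kept all mice or the 10 that left out 1. Arid1b stayed called in all of them, from -0.61 to -0.56 with 1 mouse left out and at -0.59 with the replicate block. The count of members with an unadjusted p under 0.05, 1 (higher in HT) in the report, was 0 with quantile normalisation, without the trend and with sample weights, and 2 with the replicate block (Lss and Srebf1, both higher). With 1 mouse left out it ran from 0 to 3 (0 to 2 higher, 0 to 1 lower), and Lss passed without HT1, HT4 or WT2 but not without HT2, HT3, HT5, WT1, WT3, WT4 or WT5. Srebf1 passed without HT1, HT3 or WT4, and Pmvk without HT1. The count without overlap ran from 0 to 1, being 1 without HT5 (Idi1) or WT3 (Hsd17b7). The 8 other pathway genes with an unadjusted p under 0.05 became 5 without the trend and 4 to 12 with 1 mouse left out, with 4 without HT2, HT5 or WT3. Scap ran from -0.18 to 0.00059 with 1 mouse left out, reaching the latter without HT2. After the data were seen, 2 alternatives were added. The first left out HT2 and HT5, highest in microglial, astrocyte, oligodendrocyte precursor and meningeal markers. The counts were then 0 members by p, 1 without overlap (Idi1) and 4 other pathway genes. Scap was 0.077, Npc2 -0.027, Abca1 -0.069, Srebf1 0.026, Lss 0.076, Fdps 0.085 and Tm7sf2 0.033. Without HT5, WT3 and WT5, lowest in striatal markers, the counts were 0, 3 (Acat2, Idi1 and Hsd17b7) and 1. In that setting Npc2 was -0.033, Abca1 -0.017, Srebf1 0.031, Tm7sf2 0.015, Fdps 0.040 and Scap -0.062. With fewer mice, groups without overlap arise more easily for any gene. The share over all genes was not counted in the settings that left mice out, so these counts are no result about the members named. With sample weights Lss was 0.092, Scap -0.025, Abca1 0.060 and Npc2 0.034. Causes were not tested. The labels do not say what mice of the same number share. Their deviations correlated at -0.041 to 0.101, with a mean of 0.0375, against a mean of -0.00909 for mice of different numbers. Of 10 mice, 5 correlated best with their own number. These values do not settle whether the numbers mark pairs. The main fit took no pairing, and the replicate block was an alternative. Depth is unknown, so counting error could not be separated from differences between mice.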
